A study of Mus musculus with 6 samples.

Results

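The genes described here are 10 ligands and receptors of the TNF superfamily, taken by name from the 53618 named rows of a bulk RNA-seq table of mouse leukemia cells. They are the ligands Tnf, Tnfsf4 and Tnfsf10, the death domain receptors Tnfrsf1a, Tnfrsf10b and Fas, and the receptors without a death domain Tnfrsf1b, Cd40, Tnfrsf9 and Eda2r. They are defined by name, and no measured value enters the definition. The table covered 6 libraries of GFP+Lin-c-Kit+ splenocytes, 3 labelled oil and 3 labelled tamoxifen, from recipient mice sorted 3 days after the first injection. The transplanted leukemia of both groups is driven by AE9a, a truncated AML1/ETO fusion, and began as Usp18+/f UBCER-Cre cells. The oil group is labelled Usp18+/f and the tamoxifen group Usp18+/Δ, since tamoxifen activates a Cre recombinase that the ubiquitin C promoter drives in the transplanted cells. Usp18 restrains signaling by type I interferon. The number of primary leukemias behind the 6 mice is not given in the sources used here. The agent was injected into the whole animal, and the oil group did not receive tamoxifen, so tamoxifen, Cre activity and loss of the allele cannot be told apart.

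Ligands of this family are mostly trimeric membrane proteins, some of which are shed, and they cluster their receptors on the next cell. Receptors with a death domain, such as Fas and Tnfrsf10b, recruit Fadd and caspase-8 and can start apoptosis, while Tnfrsf1a builds a complex of Tradd, Ripk1 and Traf2 that can signal to NF-κB or to death. Receptors without a death domain bind TRAF adaptors and mainly signal to NF-κB and MAP kinases. In blood cells the family is known for costimulation, survival and the killing of target cells, and several members are targets of p53, NF-κB or interferon.

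Depth and identity of the libraries bear on each result. Each library held 19172471 to 23785143 reads, so that 1 read equals 0.898 to 1.28 normalized counts, which are reads divided by a size factor per library. A gene at 3 reads or fewer in a library was given no order there, which is 2.69 to 3.83 normalized counts, and intervals on reads cover counting error only. The targeted gene went against its label: Usp18 had 217, 214 and 176 normalized counts across the oil-labelled libraries, against 477, 329 and 284 across the tamoxifen-labelled ones, which limma put at 0.81 on the log2 scale (adjusted p = 0.666), and its exons overlap those of Gm44148 on the opposite strand. Directions below compare libraries by label, tamoxifen against oil. The library labelled tamoxifen 1 stood apart, with a median correlation across genes of 0.913 with the other libraries, against 0.981 to 0.990 for each of the others. Its mitochondrial share was 0.00923% of reads, while the other libraries had 1.01% to 1.56%. Values that moved by over 1.5 times without it are given both ways. Of the markers of the sort, Kit had 7512 to 8990 normalized counts in the oil group and 4687 to 10976 in the tamoxifen group. Myb had 5328 to 6692 and 3097 to 5188, and Cd34 288 to 843 and 201 to 1052. The granule enzyme gene Mpo, also a marker of myeloid progenitors, had 0 to 4.64 and 6.39 to 20.2. The globin genes of erythroid cells were abundant, with 19942 to 32731 and 25700 to 57514 normalized counts of Hba-a1 and 15684 to 22113 and 12209 to 25015 of Hbb-bs. Ptprc, which encodes the pan-leukocyte antigen CD45, had 0.898 to 3.86 and 3.83 to 8.08, and was looked at after its values were seen. The sorted cells thus expressed Kit as the label says. Myb lay lower in each library labelled tamoxifen than in each labelled oil, and Kit and Cd34 overlapped between groups. Mpo was low, and its normalized counts lay higher in each library labelled tamoxifen. Oil 3 at 4.64 and tamoxifen 1 at 6.39 held equal reads of Mpo, so that order rests on the size factors. Ptprc lay near the limit of detection.

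Most of the 10 genes were scarce. Of these, 3 passed the filter of 10 normalized counts in at least 3 libraries, namely Tnfsf10, Tnfsf4 and Eda2r. A further 6 were detected below the filter, and Cd40 was at 0 reads in each of the 6 libraries. In 4 genes, Tnfsf4, Eda2r, Fas and Tnfrsf10b, each library labelled tamoxifen lay above each library labelled oil, and no gene lay below in the same way. The background for such a separation in the same direction was 7.86% of the 12298 genes past the filter and 8.34% of the 4823 genes below it with over 3 reads in some library. With 3 libraries against 3, an exact two-sided permutation test of a single gene can give no p below 0.1. In limma over all 6 libraries 0 of the 3 tested genes passed an adjusted p of 0.05, where the background was 0% of genes, and 2 had an unadjusted p under 0.05, where the background was 4.47%. DESeq2 on recovered reads called 2 of them higher, Tnfsf4 and Eda2r, where the background of higher calls was 0.451% of the 15314 genes given an adjusted p. limma with library weights called 3 of them higher, with Tnfsf10 added, against 3.82% of genes. edgeR on recovered reads called 0, again against 0% of genes, with 594 genes at an unadjusted p under 0.05.

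**Figure D1:**
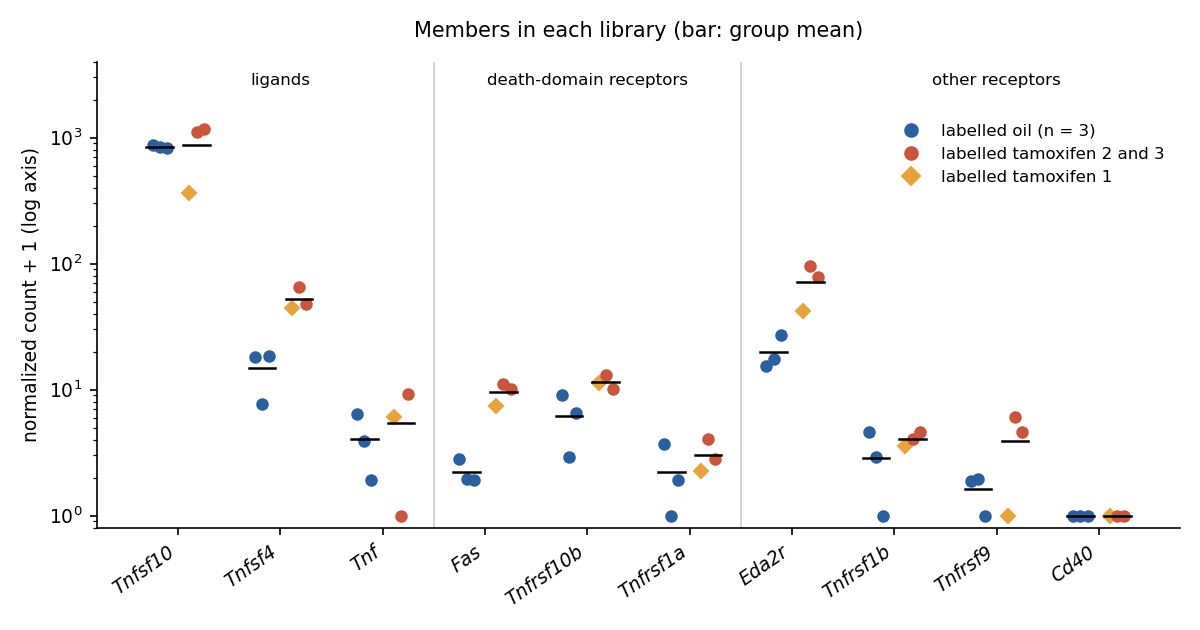
Normalized count plus 1 on a log axis for the 10 genes, by role, with 1 point per library and a bar at the mean of each group of 3. The library labelled tamoxifen 1 is drawn as a diamond. Tnfsf4, Fas, Tnfrsf10b and Eda2r separate by group, Tnfsf10 lies low in tamoxifen 1, and Cd40 stays at 0.

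The order of levels was compared per kilobase of exon. In the oil group Tnfsf10 led with 160 ± 4.18 normalized counts per kb (SD, n = 3), and its range was apart from the next gene. Tnfsf4 followed with 7.503 ± 3.33, Eda2r with 3.21 ± 1.05 and Tnf with 1.87 ± 1.36. The mean level per kb was 0.953 for Tnfrsf10b, 0.596 for Fas, 0.482 for Tnfrsf1b, 0.466 for Tnfrsf1a and 0.228 for Tnfrsf9. From Tnfsf4 downwards each gene's range overlapped that of the next. In the tamoxifen group the order began with Tnfsf10 at 166 ± 85.0, Tnfsf4 at 27.8 ± 5.92, Eda2r at 12.004 ± 4.61 and Fas at 4.14 ± 0.931 normalized counts per kb (SD, n = 3), and the ranges of the first 3 were each apart from the next. Tnf had 2.70, Tnfrsf10b 1.92, Tnfrsf9 1.06, Tnfrsf1b 0.805 and Tnfrsf1a 0.788 per kb, and from Fas to Tnfrsf1a neighbouring ranges overlapped. Among 46 ligands and receptors of the family, Tnfsf10 ranked 4 in the oil group, behind the receptors Tnfrsf14 at 814, Tnfrsf13b at 583 and Relt at 217 per kb, and it was the most abundant ligand. Tnfsf4 ranked 16 and Eda2r 18.

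**Figure D2:**
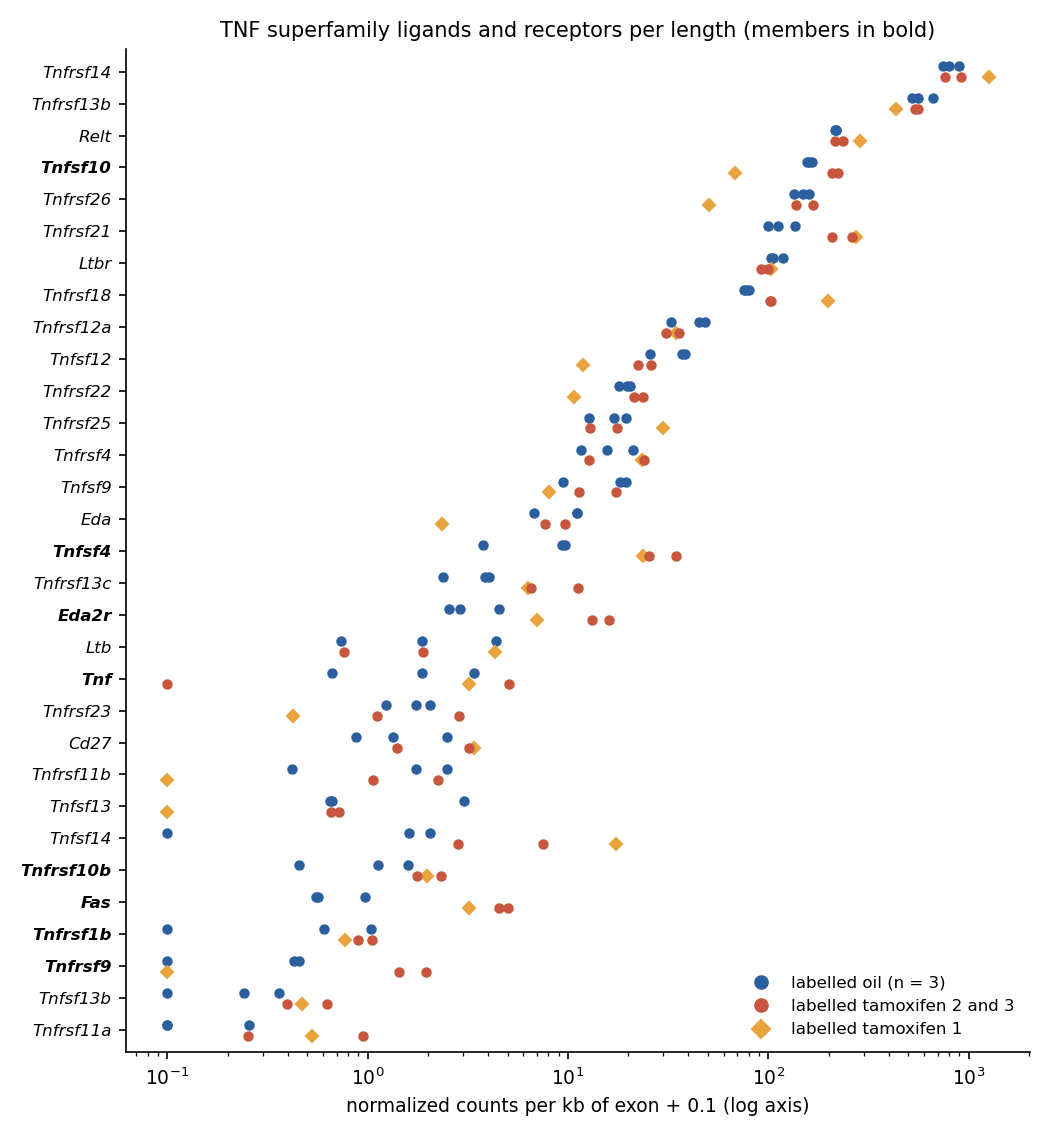
Normalized counts per kb of exon plus 0.1, on a log axis, for ligands and receptors of the family with over 3 reads in some library, ordered by their mean in the oil group. Each point is a library, with oil above tamoxifen in each row, and the genes described here are in bold. Tnfsf10 lies near the top, and Cd40 and Tnfrsf1a had too few reads to be drawn.

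Among the ligands, Tnfsf10 was abundant and its direction rested on 1 library. Tnfsf10 (ENSMUSG00000039304.11, chromosome 3, 27317028 to 27342427, plus strand, GRCm38) encodes TRAIL, the ligand of Tnfrsf10b. It had 869, 839 and 825 normalized counts across the oil-labelled libraries, against 360, 1098 and 1168 across the tamoxifen-labelled ones. Tamoxifen 1 was the lowest of the 6 libraries and tamoxifen 2 and 3 were the highest, so the groups overlapped. The group means were 844 ± 22.0 and 875 ± 447 (SD, n = 3). limma put the log2 fold change at -0.13 (standard error 0.45, adjusted p = 0.891). Without tamoxifen 1 it was 0.42 with a limma adjusted p of 0.0994, and DESeq2 then gave 0.44 with an adjusted p of 0.0113. The GC content of its longest transcript was 42.8%, and the 1794 tested genes at 40 to 44% GC had a median difference of -1.07 on the log2 scale between tamoxifen 1 and the mean of tamoxifen 2 and 3, with a middle 50% of -1.64 to -0.52, where Tnfsf10 differed by -1.65. After correction for GC content the log2 fold change of Tnfsf10 was 0.16 with a limma adjusted p of 0.763.

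Tnfsf4 (ENSMUSG00000026700.4, chromosome 1, 161395409 to 161418410, plus strand, GRCm38) encodes OX40L, a costimulatory ligand that antigen-presenting cells show to T cells, and it was higher in each library labelled tamoxifen. It had 17.1, 6.75 and 17.6 normalized counts across the oil-labelled libraries, against 43.5, 63.6 and 46.4 across the tamoxifen-labelled ones. The lowest tamoxifen library thus lay above the highest oil library, and oil 2 was the lowest of all with 7 reads. The means were 13.8 ± 6.13 and 51.2 ± 10.9 (SD, n = 3). In limma this made a log2 fold change of 1.90 (standard error 0.44, 95% interval 0.86 to 2.94, unadjusted p = 0.00377, adjusted p = 0.666). DESeq2 gave 1.88 with an adjusted p of 0.0301. Without tamoxifen 1 the log2 fold change was 2.01 with a limma adjusted p of 0.129, and DESeq2 called it at 1.999 with an adjusted p of 0.0173. Its GC content was also 42.8%, and tamoxifen 1 differed from the mean of tamoxifen 2 and 3 by -0.32 on the log2 scale. The study named Tnfsf4 from this comparison, so its direction is not independent evidence.

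Tnf (ENSMUSG00000024401.14, chromosome 17, 35199381 to 35202007, minus strand, GRCm38), the inflammatory cytokine that binds Tnfrsf1a and Tnfrsf1b, was near the limit of detection. It had 5.39, 2.89 and 0.929 normalized counts across the oil-labelled libraries, against 5.11, 0 and 8.18 across the tamoxifen-labelled ones. The groups overlapped, with the highest value in tamoxifen 3 and tamoxifen 2, oil 2 and oil 3 at 3 reads or fewer. The reads numbered 10 and 13 in the 2 groups, a ratio of normalized level of 1.46 with an exact 95% interval of 0.592 to 3.72, so that neither a rise nor a fall was detectable at this depth.

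**Figure D3:**
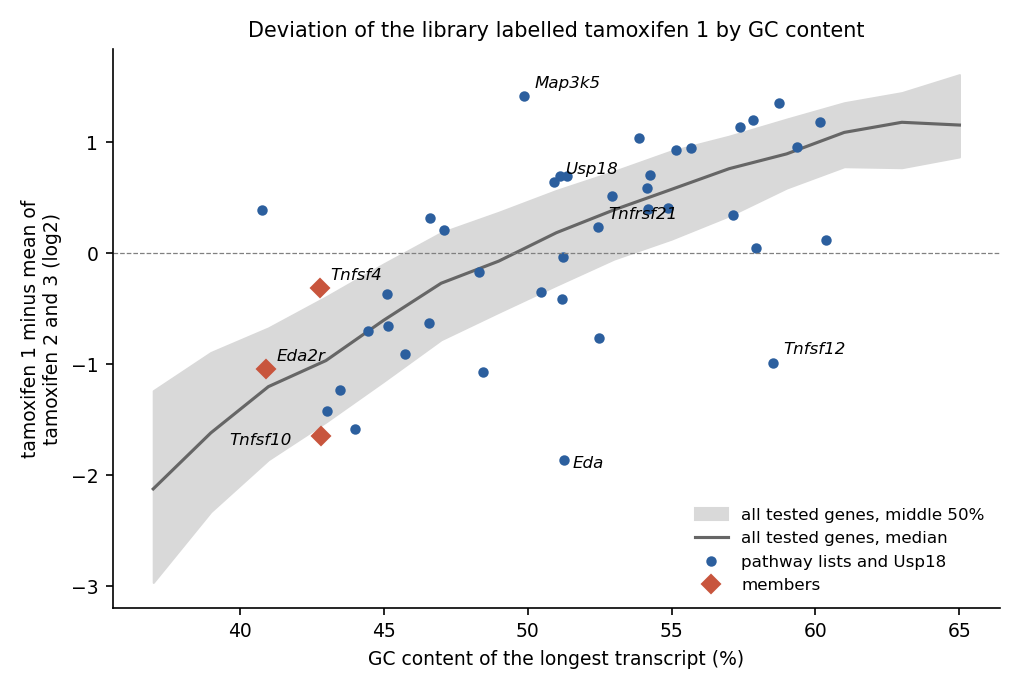
Difference of the library labelled tamoxifen 1 from the mean of tamoxifen 2 and 3 (log2) against the GC content of the longest transcript, in percent. The line and the band are the median and the middle 50% of the tested genes in narrow steps of GC content, diamonds are the 3 tested genes described here and circles the tested genes of the pathway lists and Usp18. The line rises with GC content, and all 3 diamonds lie below 0, with Tnfsf10 at -1.65, Eda2r at -1.04 and Tnfsf4 at -0.32.

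Among the death domain receptors, Fas separated by group at low levels. Fas (ENSMUSG00000024778.13, chromosome 19, 34290666 to 34327772, plus strand, GRCm38), the receptor for Fas ligand and a known target of p53, had 1.80, 0.965 and 0.929 normalized counts across the oil-labelled libraries, against 6.39, 10.1 and 9.09 across the tamoxifen-labelled ones. The oil libraries had 2, 1 and 1 reads, at the floor, and the tamoxifen libraries 5, 10 and 10 reads, above it. Over the groups this was 4 against 25 reads, a 7.02-fold ratio with an exact 95% interval of 2.42 to 27.8 that covers counting error only. DESeq2 gave a log2 fold change of 2.79 with an adjusted p of 0.466, and limma with no filter gave 2.10 with an adjusted p of 0.70. No alternative that gave an adjusted p for Fas called it. Fas ligand, encoded by Fasl, was at 0 reads in each library.

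Tnfrsf10b (ENSMUSG00000022074.6, chromosome 14, 69767472 to 69784411, plus strand, GRCm38), the mouse TRAIL death receptor, had 8.08, 1.93 and 5.57 normalized counts across the oil-labelled libraries, against 10.2, 12.1 and 9.09 across the tamoxifen-labelled ones. The groups did not overlap, but oil 1 with 9 reads lay close to tamoxifen 1 with 8 and tamoxifen 3 with 10 reads. The reads numbered 17 and 30, a ratio of 1.98 with an exact 95% interval of 1.06 to 3.83 for counting error only. The DESeq2 log2 fold change was 1.003 with an adjusted p of 0.83. Tnfrsf1a (ENSMUSG00000030341.17, chromosome 6, 125349362 to 125362484, plus strand, GRCm38), which encodes TNF receptor 1, had 2.69, 0 and 0.929 normalized counts across the oil-labelled libraries, against 1.28, 3.03 and 1.82 across the tamoxifen-labelled ones. No library had more than 3 reads of Tnfrsf1a, so it was given no order between the groups.

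Among the receptors without a death domain, Eda2r was the one past the filter, and it was higher in each library labelled tamoxifen. Eda2r (ENSMUSG00000034457.10, chromosome X, 97333840 to 97377216, minus strand, GRCm38) encodes XEDAR, the receptor for the A2 form of ectodysplasin and a known p53 target. It had 14.4, 16.4 and 26.0 normalized counts across the oil-labelled libraries, against 40.9, 94.0 and 77.3 across the tamoxifen-labelled ones. Tamoxifen 1 was the lowest of its group, by -1.04 on the log2 scale from the mean of the others, and still above the highest oil library. The means were 18.9 ± 6.21 and 70.7 ± 27.1 (SD, n = 3). In limma this made a log2 fold change of 1.81 (standard error 0.42, 95% interval 0.81 to 2.81, unadjusted p = 0.00385, adjusted p = 0.666), and DESeq2 gave 1.91 with an adjusted p of 0.0192. Without tamoxifen 1, Eda2r rose by 2.16 on the log2 scale with a limma adjusted p of 0.0279 (0.0545 with no filter), where limma called 0.309% of genes higher, and edgeR gave 2.19 with an adjusted p of 0.0215, where it called 0.341% higher. DESeq2 without this library gave 2.19 with an adjusted p of 0.000108, where it called 1.38% of the 12719 genes given an adjusted p higher. The study also picked Eda2r for follow-up in these cells, so its direction is not independent evidence.

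The ligand Eda, which makes ectodysplasin, had 45.8, 75.2 and 75.2 normalized counts across the oil-labelled libraries, against 15.3, 65.7 and 51.8 across the tamoxifen-labelled ones, or -0.75 on the log2 scale (limma adjusted p = 0.666). When tamoxifen 1, its lowest library, was left out, Eda stood at -0.13. Gene counts do not separate the A1 and A2 forms of ectodysplasin.

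The other receptors without a death domain were scarce. Tnfrsf9 (ENSMUSG00000028965.13, chromosome 4, 150914562 to 150946102, plus strand, GRCm38), which encodes the costimulatory receptor 4-1BB, had 0.898, 0.965 and 0 normalized counts across the oil-labelled libraries, against 0, 5.05 and 3.64 across the tamoxifen-labelled ones. It exceeded the floor of 3 reads in tamoxifen 2 and 3 but had none in tamoxifen 1, so the groups overlapped. The reads numbered 2 and 9, a ratio of 5.06 with an exact 95% interval of 1.05 to 48.1. Tnfrsf1b (ENSMUSG00000028599.10, chromosome 4, 145213463 to 145246870, minus strand, GRCm38), TNF receptor 2, had 3.59, 1.93 and 0 normalized counts across the oil-labelled libraries, against 2.56, 3.03 and 3.64 across the tamoxifen-labelled ones. These overlapped, with 6 and 9 reads and a ratio of 1.69 with an exact 95% interval of 0.536 to 5.75. Cd40 (ENSMUSG00000017652.16, chromosome 2, 165055627 to 165072948, plus strand, GRCm38), the receptor by which T cells license B cells and macrophages, had 0 reads in each library, which allows up to 2.69 to 3.83 normalized counts.

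Promoter windows are shown for Eda2r and Fas, whose groups separated, and for Tnfsf10, the most abundant ligand, to place them beside the regulators named above. RefSeq windows on GRCm38.p6 matched 7 of the 10 genes. Only bases upstream of a RefSeq transcript start are searched, and they are printed 5′ to 3′ on the gene's strand, with motif matches in capitals. The windows printed also lie upstream of the GENCODE gene start, while those of Tnfrsf1a and Tnfrsf9 lie inside the GENCODE gene. Searched on both strands were TATAAA (the TATA box), TTCNNNGAA (GAS, the STAT dimer site), the core of the interferon-stimulated response element, the p53 half-site and the kB site, of which GAS and the p53 half-site read the same on both strands. In 250 bases upstream of 32851 RefSeq starts they occurred in 12.4%, 7.02%, 2.98%, 7.13% and 3.90% of windows. The Eda2r window, chrX:97377217-97377459, minus strand, holds TATAAA with its first base 58 bases before the RefSeq start. The Fas window, chr19:34290409-34290658, plus strand, holds a GAS match 93 bases before the RefSeq start. The Tnfsf10 window, chr3:27316827-27317027, plus strand, holds none of these letters. Cut at the GENCODE gene start, it is 201 bases long and the Eda2r window 243. Bases from there to the RefSeq start were not searched, while the background is from 250 bases. Among the windows not printed, that of Tnfrsf1b holds the one match to the response element core, 10 bases before the start, and a GAS match. The downstream one of 2 Tnfrsf9 windows holds a GAS match and 2 kB matches that overlap each other by all but 1 base, 43 and 42 bases before the start. The window of Tnfrsf1a holds a GAS match and that of Tnf TATAAA, and the p53 half-site was found in no window of the 7 genes. These 4 genes had 0 to 9 reads in each library, and their groups overlapped or were given no order. No match printed overlaps another motif. A match is a description of the letters and not a bound site.
Eda2r: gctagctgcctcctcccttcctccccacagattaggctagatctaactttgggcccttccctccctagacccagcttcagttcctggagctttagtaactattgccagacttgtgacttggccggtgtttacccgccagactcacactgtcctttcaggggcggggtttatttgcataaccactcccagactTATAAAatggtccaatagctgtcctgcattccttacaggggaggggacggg
Fas: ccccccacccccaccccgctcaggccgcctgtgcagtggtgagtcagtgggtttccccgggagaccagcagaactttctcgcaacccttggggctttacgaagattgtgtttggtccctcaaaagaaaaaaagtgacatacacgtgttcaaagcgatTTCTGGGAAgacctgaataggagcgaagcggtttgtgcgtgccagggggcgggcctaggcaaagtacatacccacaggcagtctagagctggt
Tnfsf10: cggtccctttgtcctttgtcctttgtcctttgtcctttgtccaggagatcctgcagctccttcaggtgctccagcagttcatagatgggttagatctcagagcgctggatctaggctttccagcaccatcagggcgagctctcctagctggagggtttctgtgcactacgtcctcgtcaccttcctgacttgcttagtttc

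The rest of the family was described from 3 fixed lists. Of 15 other ligands, 7 were at 0 in each library, among them Fasl, Cd40lg, Lta and Cd70, and 3 were tested. All 3 had negative values, Tnfsf12 (TWEAK) with a log2 fold change of -0.79, Eda with -0.75 and Tnfsf9 (4-1BBL) with -0.34, none passed an adjusted p of 0.05 in limma, and their median was -0.75 against -0.017 over all tested genes. Without tamoxifen 1 Tnfsf12 stood at -0.46, Eda at -0.13 and Tnfsf9 at -0.092, and the median was -0.13 against -0.021. Tnfsf9 stood at -0.16 without oil 2 and at -0.66 without oil 3. Below the filter, Tnfsf14 (LIGHT), chosen after its values were seen, had 3.59, 0 and 2.79 normalized counts across the oil-labelled libraries, against 31.95, 5.05 and 13.6 across the tamoxifen-labelled ones. The groups separated upwards, as did 8.34% of genes below the filter with over 3 reads in some library. Oil 1 had 4 reads and tamoxifen 2 had 5. The tamoxifen mean of Tnfsf14 was 16.9, or 9.35 without tamoxifen 1, its highest library.

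Of 21 other receptors, 5 were at 0 and 12 were tested, 7 with positive values, among them Tnfrsf13c, which passed the filter only through the tamoxifen group, and 5 with negative values, and the median log2 fold change was 0.20 (0.052 when tamoxifen 1 was left out). In limma over all libraries 0 passed. Tnfrsf21, the death domain receptor DR6, had 557, 409 and 461 normalized counts across the oil-labelled libraries, against 1127, 853 and 1072 across the tamoxifen-labelled ones. The lowest tamoxifen library lay well above the highest oil library, and per kb of exon its mean of 116 in the oil group exceeded those of Fas, Tnfrsf10b and Tnfrsf1a, the highest of which was 0.953. limma put the log2 fold change at 1.10 (standard error 0.20, adjusted p = 0.576), and DESeq2 gave 1.10 with an adjusted p of 0.00264. Without tamoxifen 1, Tnfrsf21 rose by 1.02 on the log2 scale with a limma adjusted p of 0.0268, and by 1.03 with a DESeq2 adjusted p of 1.49e-07.

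Tnfrsf13c, the BAFF receptor, had 8.08, 7.72 and 4.64 normalized counts across the oil-labelled libraries, against 12.8, 13.1 and 22.7 across the tamoxifen-labelled ones. It met the minimum of 10 only in the tamoxifen group, so that its separation is partly set by the filter. Tnfrsf18 (GITR) had 118, 115 and 123 against 303, 158 and 155, so that its highest value was in tamoxifen 1. The log2 fold changes of Tnfrsf13c and Tnfrsf18 were 1.12 and 0.71, with a limma adjusted p of 0.666 each, and Tnfrsf18 stood at 0.40 without tamoxifen 1. Tnfrsf12a, the receptor of Tnfsf12, had a log2 fold change of -0.29, or -0.18 without oil 3, and overlapping groups.

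**Figure D4:**
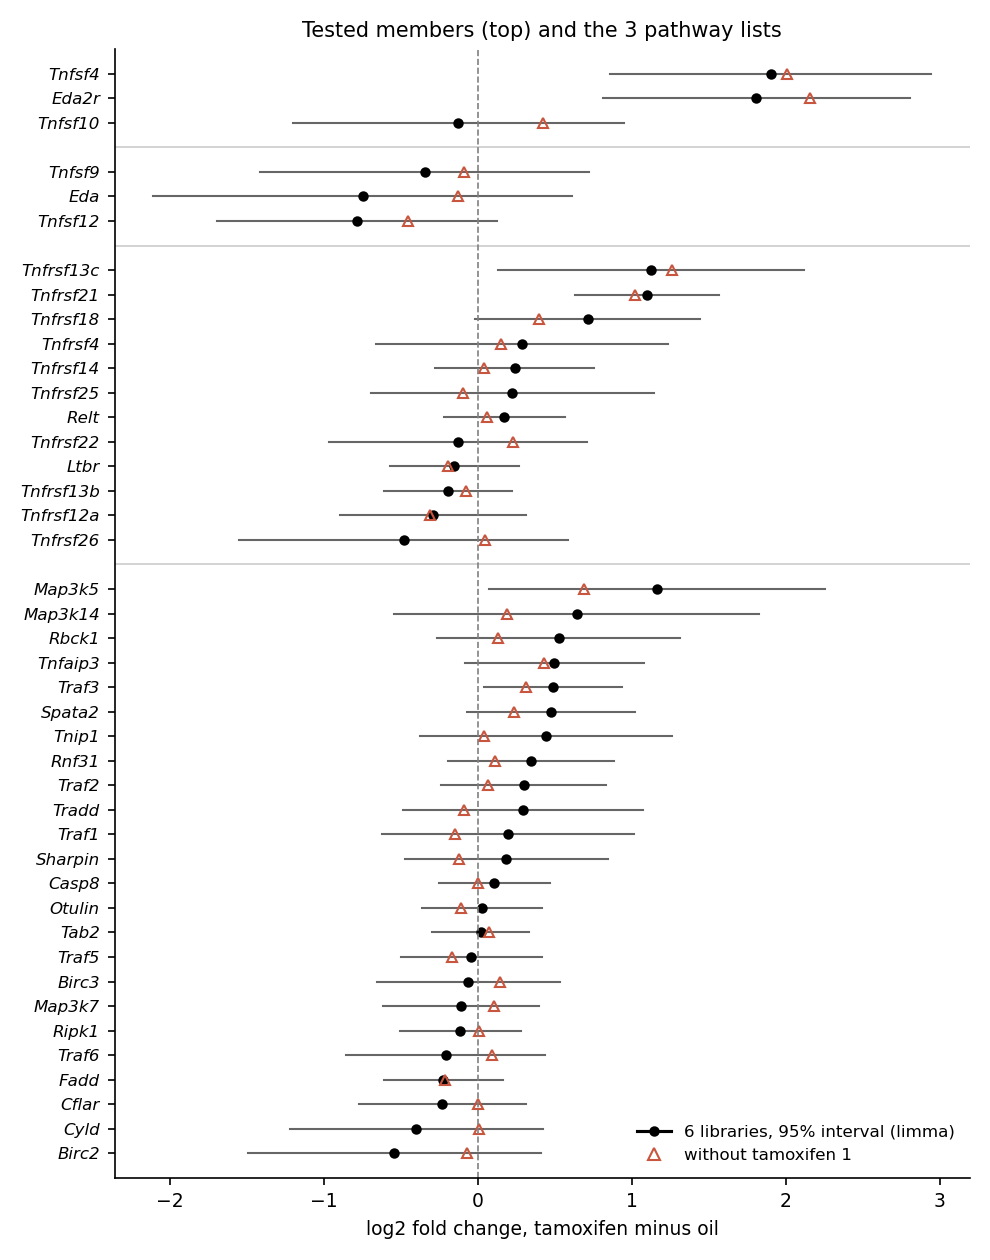
Log2 fold change, tamoxifen minus oil, on the log2(value + 1) scale for the 3 tested genes described here (top) and the tested genes of the lists of other ligands, other receptors and receptor-proximal signalling. Circles with 95% intervals are limma over 6 libraries and triangles the fit without tamoxifen 1. Tnfsf4 at 1.90 and Eda2r at 1.81 lie to the right of the other genes, Tnfsf10 moves from -0.13 to 0.42, and intervals of most signalling genes include 0.

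Downstream of the receptors, most adaptors and enzymes were expressed well above the filter. Of 25 genes, 24 were tested and 0 passed in limma, 15 with positive and 9 with negative values, a median log2 fold change of 0.15 and 0.053 without tamoxifen 1. Fadd, the adaptor of the death receptors, had 447, 450.5 and 528 normalized counts across the oil-labelled libraries, against 400, 428 and 389 across the tamoxifen-labelled ones, and Casp8 had 2400, 2283 and 2342 against 2918, 2458 and 2239. Groups separated upwards for 6 of the 24 genes, where the background was 7.86%, and downwards for 1, Fadd, where it was 9.69%. The 6 were Traf2, Traf3, Rnf31, Rbck1, Spata2 and Map3k5, and tamoxifen 1 was the highest library in each. Rbck1 had 9725 normalized counts in tamoxifen 1, against 4271 and 4275 in tamoxifen 2 and 3. Named by the rule, Traf3, an inhibitor of non-canonical NF-κB signaling, had 1434, 1406 and 1436 normalized counts across the oil-labelled libraries, against 2542, 1685 and 1864 across the tamoxifen-labelled ones, or 0.49 on the log2 scale and 0.31 without tamoxifen 1. Map3k5 (ASK1), a kinase of the stress MAP kinase cascade, had 94.3, 60.8 and 82.6 against 340.0, 104 and 154, or 1.16 on the log2 scale and 0.69 when tamoxifen 1 was left out. Spata2, which links Cyld to the linear ubiquitin ligase, had a log2 fold change of 0.47, which fell to 0.24 without tamoxifen 1. Tnfaip3 (A20), a brake on NF-κB, had 0.50, or 0.29 without oil 3. The adjusted p of these 4 was 0.666 in limma.

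Markers of other cell types differed between the groups as well. The 8 macrophage markers, 7 of them above 3 reads in some library and Vsig4 at 0, summed to 83.9 to 179 normalized counts in the oil group and 199 to 284 in the tamoxifen group. The 4 neutrophil markers, 2 of them above 3 reads and Ly6g at 0, summed to 1.86 to 5.79 and 13.6 to 35.4. These sums separated in the same direction as Tnfsf4, Eda2r, Fas and Tnfrsf10b. The study sorted these cells as lineage-negative, and the lineage cocktail it lists for bone marrow includes CD11b, Gr1 and Ter119, an erythroid antigen. The 3 erythroid markers summed to 40732 to 59701 normalized counts in the oil group and 45910 to 70115 in the tamoxifen group. Itgam, which encodes CD11b, had 0 normalized counts in the oil group and 0 to 1.01 in the tamoxifen group. The part of macrophages and neutrophils in those results was not tested. Of the 5 T cell markers none exceeded 3 reads in any library, with sums of 0 and of 0.909 to 4.04, and of the 3 NK cell markers none did, with sums of 0 to 0.929 and 0 to 0.909. Of the B cell markers, Ms4a1 was at 0, Cd79a had 2.79 to 6.75 and 1.01 to 8.18, Cd79b had 0.929 to 2.89 and 5.05 to 16.6 and Pax5 had 0 to 0.929 and 0 to 0.909. The 5 dendritic cell markers, with Clec9a at 0 and Zbtb46 alone above 3 reads, summed to 85.3 to 130.2 and 83.9 to 174. The 4 markers of c-Kit+ myeloid progenitors summed to 13194 to 16527 and 7990 to 17201. In bulk samples, fewer cells of a type and less RNA per cell cannot be told apart.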

How the data were processed

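RNA was extracted from sorted cells of 6 mice, and Novogene prepared the libraries, as the study states. Per the study's methods and submitters' processing notes, the authors used STAR and DESeq2, with mm10 as the build; annotation, filters and strand setting are not given in the sources used here. The deposited values are a normalized signal, which is read counts over a library size factor. Of the values 100% were, per library, whole multiples (tolerance 0.01) of 1 step, which gave back whole reads. The step was 0.898 to 1.28. The 1832 unnamed of 55450 rows took 0.0400% to 0.0614% of reads and stayed out.

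limma (3.58.1, R 4.3.3; lmFit, eBayes with a trend) was fitted to log2(value + 1), which understates changes of low genes, over 12298 genes with at least 10 normalized counts in 3 libraries. Tests were two-sided, with Benjamini-Hochberg adjustment over all genes at 0.05. DESeq2 (1.42.0) and edgeR (4.0.16) on recovered reads (DESeq2 over all 24247 genes with a read), other filters, pseudocounts (0.5 and 5), scaling by TMM, GC correction, library weights, the replicate block and leaving out libraries were alternatives. Fits were tested on simulated data. Coordinates, exon lengths and GC content are from GENCODE vM21 (GRCm38), and promoters from RefSeq (GRCm38.p6). The genes described, the lists and the tests were chosen with earlier results of these data known. Named were the 10 genes, Usp18 and up to 4 tested genes per list with the smallest unadjusted p; others named were chosen after their values were seen. Replicates were separate mice per the series' design, and no pair within a group agreed within sampling noise. The results of 2 cell type marker genes are not reported here.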

Additional observations from a re-analysis of the deposited data

How the results depend on the processing

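Genes called numbered 0 in limma over 6 libraries, 71 with DESeq2, 2 with GC correction, 782 with library weights (the weight of tamoxifen 1 was 0.0377), 231 with DESeq2 and 46 with edgeR without tamoxifen 1, and 35 with no filter and without tamoxifen 1, an alternative chosen after seeing the data. With 1 library left out, limma called 0 to 41 genes, and the 41 came without tamoxifen 1. Of the 10 genes described, 2 were called with DESeq2, 3 with library weights (Tnfsf4, Eda2r and Tnfsf10), 3 with DESeq2 and 1 with edgeR without tamoxifen 1, and 0 to 1 with 1 library left out, Eda2r without tamoxifen 1. With no filter and without tamoxifen 1, 0 were called, with Eda2r at an adjusted p of 0.0545. Of the other receptors, DESeq2 called 1 over 6 libraries and 1 without tamoxifen 1, edgeR 1 and the fit with no filter 1 without it, library weights 2 (Tnfrsf21, and Tnfrsf13c, which passed the filter only through the tamoxifen group), and 0 to 1 were called with 1 library left out. Of the signalling genes, library weights called 2 of the 24 tested (Map3k5 and Traf3). The calls given for these lists were all higher in the tamoxifen group. Over all genes, higher calls made up 0.451% with DESeq2 and 3.82% with library weights. Without tamoxifen 1 they made up 0.309% with limma, 1.38% with DESeq2 and 0.341% with edgeR, and were 32 of 23788 genes with no filter. Usp18 was past the threshold with library weights, at 0.52.

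Tnfsf10 ranged from -0.42 to 0.42 with 1 library left out. It turned positive at 0.052 with DESeq2, 0.074 with edgeR, 0.16 with GC correction, 0.16 with GC correction and the replicate block, 0.43 with library weights, 0.42 without tamoxifen 1 with and without the filter, and 0.44 with DESeq2 and 0.44 with edgeR without that library; the cause was not tested. Over 20 alternatives Tnfsf4 ranged from 1.49 to 2.19 with adjusted p from 0.00971 to 0.861, Eda2r from 1.57 to 2.21 (0.000108 to 0.861) and Tnfrsf21 from 0.95 to 1.22 (1.49e-07 to 0.861). The median over the 24247 genes without a filter was 0.11 in DESeq2 and 0.040 in limma.

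Libraries sharing a replicate number were not paired, since their deviations correlated at -0.024, 0.061 and -0.15. With the replicate block limma called 0 genes, 426 had an unadjusted p under 0.05, and 0 of the 10 genes described were called.

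Depth limits Tnf, Tnfrsf1a, Tnfrsf1b, Tnfrsf9 and Cd40, whose reads summed over the 3 libraries of a group numbered 13 at most.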
